A study of Homo sapiens with 20 samples.

Results

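The ZNF217 locus examined here was a window of 1.0 Mb on chromosome 20q13, chr20:53300000-54300000 of hg38, which holds the genes ZNF217, BCAS1, CYP24A1 and PFDN4 and the last part of TSHZ2. Acetylation of histone H3 at lysine 27 (H3K27ac) had been measured in it by chromatin immunoprecipitation and sequencing of 16 libraries. All peaks and super-enhancers (SEs) that lay in the window were taken, and peaks of different libraries that shared at least 1 bp were merged into elements. This gave 338 peaks in 65 elements, of 271550 peaks in 58860 elements over the genome, and 34 SEs in 5 merged SE regions, of 8295 SEs in 1873 regions. The locus was chosen by its SE calls: the SE beside ZNF217 was in both lists of oxaliplatin-treated knockout cells with control silencing and in neither list of such cells with HDAC4 silencing. That contrast is therefore described without a test. No call crossed an edge of the window, and the nearest elements on either side of the edges were each called in 1 library, 203.4 kb and 14.2 kb inside and 137.9 kb and 320.1 kb outside.

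The cells were HCT-116, an established human colorectal cancer line, either wild type (WT) or knocked out for FBXW7 (KO), the substrate receptor of a ubiquitin ligase. Both lines were obtained from a supplier, and the sources used here do not say whether the KO line is 1 clone. For 48 h the cells carried endoribonuclease-prepared silencing RNA, either a control (esiCT) or one against the class IIa histone deacetylase HDAC4 (esiHDAC4), and during the final 24 h they were left untreated (UNT) or received the platinum drug oxaliplatin at 50 µM (OXPT). The 8 groups, WT or KO with esiCT or esiHDAC4 and UNT or OXPT, had 2 libraries each, replicates A and B. The labels state that chromatin of 3 experiments was combined, so the spread between A and B may be smaller than that between separate cultures, and p-values measure only the spread between these libraries.

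ZNF217 is a zinc-finger protein that acts largely as a transcriptional repressor, in complexes with CtBP, the corepressor RCOR1 (CoREST), the demethylase KDM1A (LSD1) and histone deacetylases, and its gene lies in a segment that is often amplified in epithelial cancers. BCAS1 was named for its amplification in breast cancer and is best known from myelinating cells. CYP24A1 is the mitochondrial 24-hydroxylase that inactivates vitamin D hormone, and the vitamin D receptor induces it. PFDN4 is a subunit of prefoldin, a chaperone that hands unfolded actin and tubulin to the chaperonin. ZNF217 (ENSG00000171940.14, chr20:53567071-53609907), BCAS1 (ENSG00000064787.14, chr20:53936777-54070594) and CYP24A1 (ENSG00000019186.10, chr20:54153446-54173986) are read on the minus strand and PFDN4 (ENSG00000101132.10, chr20:54208087-54228052) on the plus strand, in GENCODE on hg38, so that positions above ZNF217 are upstream of it. H3K27ac marks active promoters and enhancers, and an SE is a cluster of neighbouring enhancers with a high total signal. Class IIa deacetylases such as HDAC4 act as parts of corepressor complexes rather than through strong catalysis of their own.

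The sequences below belong to places that the following results describe, printed on the strand named, in lower case. No comparison at these places held after correction for multiple testing. They were read from hg38, except the ZNF217 promoter, which was taken from RefSeq on GRCh38.p14. Of ZNF217, BCAS1 and CYP24A1 only ZNF217 had an entry there, and PFDN4 was not looked up. The core element, 28.4 kb upstream of the ZNF217 start site and the only element of the window called in all 16 libraries, is shown by a window of 200 bases at a group of neighbouring summits of 3 KO libraries. The capitals mark the 47 bases that held 2 of these summits, and the third lay just beyond the window.
core element, KO summits, chr20:53623764-53623963, plus strand: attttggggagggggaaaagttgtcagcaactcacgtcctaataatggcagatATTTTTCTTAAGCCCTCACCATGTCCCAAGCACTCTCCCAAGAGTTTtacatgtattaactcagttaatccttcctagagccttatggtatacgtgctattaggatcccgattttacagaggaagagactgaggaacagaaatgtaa

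The elements with the smallest p for presence in KO against WT, 180.6, 546.2 and 555.8 kb upstream, are shown around the summit of the library with the highest fold. The capitals mark the match to a motif letter string, and lower case throughout means that no searched string matched.
element at 180.6 kb, chr20:53773502-53773701, plus strand: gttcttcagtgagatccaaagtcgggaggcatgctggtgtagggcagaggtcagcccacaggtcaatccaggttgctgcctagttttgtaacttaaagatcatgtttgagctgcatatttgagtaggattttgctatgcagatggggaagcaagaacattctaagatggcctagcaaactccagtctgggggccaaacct
element at 546.2 kb, chr20:54139798-54139997, plus strand: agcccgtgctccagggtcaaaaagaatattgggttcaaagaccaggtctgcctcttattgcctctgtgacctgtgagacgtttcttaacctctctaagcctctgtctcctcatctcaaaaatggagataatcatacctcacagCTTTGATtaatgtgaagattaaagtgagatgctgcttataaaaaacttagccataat
element at 555.8 kb, chr20:54150037-54150236, plus strand: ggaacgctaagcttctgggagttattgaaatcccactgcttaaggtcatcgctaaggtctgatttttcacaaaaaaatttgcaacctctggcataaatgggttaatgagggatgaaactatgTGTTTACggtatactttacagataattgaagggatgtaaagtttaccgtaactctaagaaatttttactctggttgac
The ZNF217 promoter is given as the 250 bases upstream of its start site, because H3K27ac at this start was called in all WT lists and in only some KO lists.
ZNF217 promoter, chr20:53593840-53594089, minus strand: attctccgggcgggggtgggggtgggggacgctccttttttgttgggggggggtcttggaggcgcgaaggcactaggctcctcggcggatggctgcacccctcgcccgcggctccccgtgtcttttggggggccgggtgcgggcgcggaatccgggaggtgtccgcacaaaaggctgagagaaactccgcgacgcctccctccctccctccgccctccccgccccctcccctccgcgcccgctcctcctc
It has a GC content of 72.4% and 55.9% of its 24-base words occur more than once in the genome. Strings for 5 factors were searched on both strands, AP-1 (TGANTCA), FOXO (TGTTTAC), TEAD (ACATTCC), TCF/LEF (CTTTGAT) and MEF2. Of the sequences printed, the element at 546.2 kb held the TCF/LEF string at bases 144 to 150 and the element at 555.8 kb the FOXO string at bases 123 to 129, counted from 1 at the first printed base. Over windows of 200 bases around the summits, the TCF/LEF string was in 4 of the 65 elements (6.15%) and in 2.12% of all elements, the FOXO string in 3 (4.62%) and 2.28%, the AP-1 string in 3 (4.62%) and 4.85%, the TEAD string in 2 (3.08%) and 2.45%, and the MEF2 string in 0 and 0.39%. Among 35116 RefSeq promoters the shares were 2.26%, 2.98%, 6.57%, 2.96% and 0.52% in the same order. These counts are small, a match is only a match of letters, and they were not tested.

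The libraries differed in depth. Read totals were not used, and the background in reads that the deposited fold and p imply served as the index of depth. It ranged from 1.65 to 3.07 reads in WT and from 1.02 to 2.89 in KO, and a summit over that background had to reach a fold of 2.87 to 3.96, depending on the library, to be called. Over a higher local background, peaks were called at lower folds. Lists held a median of 22290 peaks in WT and 10427.5 in KO, and the shallowest, KO esiHDAC4 UNT B, held 1752 peaks and 66 SEs and is left out where stated. The background inside the window was 0.91 to 1.07 times that of all peaks of the same library. Of 10 epithelial markers 8 had a peak at their start site, with KRT18 in all 16 libraries and the intestinal genes VIL1 and CDX1 in none, and of 12 markers of other cell types 10 had none, while COL1A1 had one in 11 libraries. The FBXW7 start site carried a peak in 5 WT and 3 KO libraries and the HDAC4 start site in 4 esiCT and 6 esiHDAC4 libraries. H3K27ac does not test either the knockout or the silencing.

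Most of the 65 elements were seen rarely. There were 35 (53.8%) called in a single library, as were 51.9% of all elements, 17 in 2 to 7 libraries and 13 in at least 8, of which 8 were in at least 12. By nearest start site 30 elements belonged to ZNF217, 16 to BCAS1, 15 to CYP24A1 and 4 to PFDN4. There were 52 intergenic elements, 7 in introns and 6 touching exons. The ZNF217 gene held 7 elements, 2 of them called in at least 8 libraries, CYP24A1 held 3 and PFDN4 held 2. BCAS1, whose body is the longest of the genes that start in the window, held 1 element (chr20:54067003-54067475, in an intron, 473 bp), called only in WT esiCT UNT A at a fold of 3.65, and its start site had no call in any library. No element lay in the TSHZ2 part of the window. Of the 13 elements called in at least 8 libraries, 4 lay within 52.9 kb from the ZNF217 start site upstream, 3 within 32.9 kb between BCAS1 and CYP24A1 and 2 within 14.1 kb around the CYP24A1 start site. These stretches held 12, 10 and 6 elements in all, many of them called in 1 library, and the other 4 recurrent elements lay outside them.

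**Figure D1:**
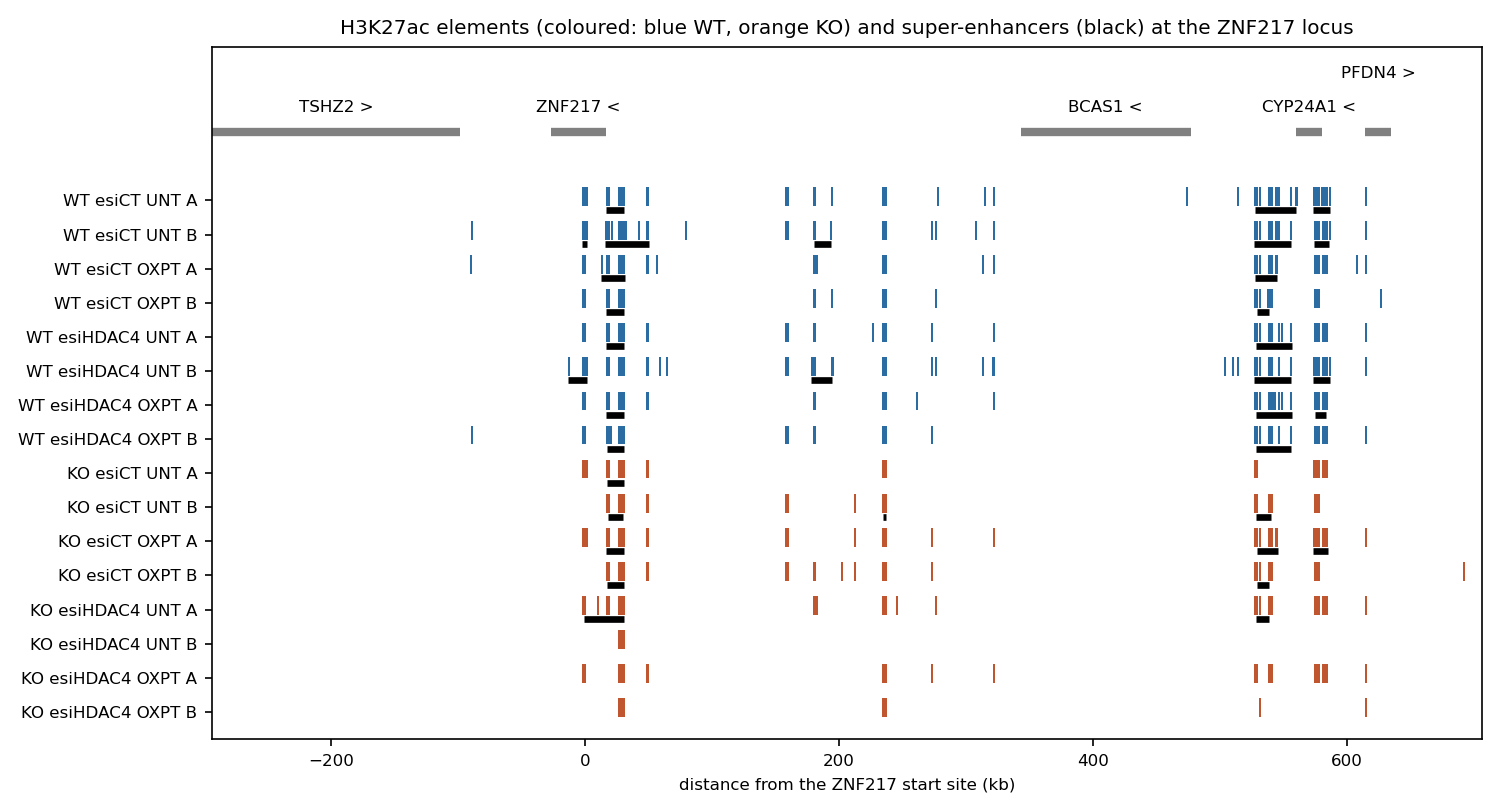
Elements (coloured ticks, blue WT and orange KO) and SEs (black bars) of each of the 16 libraries along the window, with distance from the ZNF217 start site in kb on the x axis and 1 row per library. Grey bars mark the genes with their direction of transcription. The element 28.4 kb upstream is present in every row, BCAS1 is nearly empty, and the 3 lowest rows without SE bars are KO esiHDAC4 libraries.

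The ZNF217 start site lay in an element of 2986 bp (chr20:53591240-53594225) that was called in all 8 WT and in 4 KO libraries. The fold, the summit reads over the local background of the same library with 1 read added to both, was 8.18 and 4.93 in WT esiCT UNT A and B, 5.24 and 3.49 in WT esiCT OXPT, 4.39 and 4.32 in WT esiHDAC4 UNT and 5.69 and 3.89 in WT esiHDAC4 OXPT. In KO it was 4.47 in esiCT UNT A, 4.70 in esiCT OXPT A, 6.57 in esiHDAC4 UNT A and 4.90 in esiHDAC4 OXPT A. All 4 KO replicates A thus had the peak, within the range of the WT values, and none of the 4 KO replicates B did. The background of those B libraries was 1.02 to 1.51 reads and that of the KO A libraries 1.52 to 2.89, and the part of depth in the missing calls was not tested. The element at 17.6 kb (chr20:53609856-53613083, 3228 bp) covered the upstream end of the annotated gene and touched an exon. It lay 964 bp from the nearest alternative start of a protein-coding transcript of ZNF217. The element at 17.6 kb was called in all 8 WT libraries at folds of 3.46 to 5.27 and in 5 KO libraries at 3.94 to 5.29, and it was absent from KO esiHDAC4 UNT B and from both KO esiHDAC4 OXPT lists. Also within 1 kb of a ZNF217 start were an element at 1.2 kb (chr20:53594681-53595481), called in 3 WT libraries at 3.50 to 5.42 and in 2 KO libraries at 4.15 and 4.46, and one at 15.5 kb (chr20:53609231-53609502), called only in WT esiCT UNT B at 2.91.

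The core element (chr20:53619519-53624951, 5433 bp) is intergenic with respect to protein-coding genes and lies in the lncRNA gene ENSG00000235415.1. Its folds in esiCT cells were 11.59 and 8.74 in WT UNT A and B, 6.06 and 6.37 in WT OXPT, 6.92 and 3.28 in KO UNT and 8.0 and 8.2 in KO OXPT. In esiHDAC4 cells they were 4.22 and 6.63 in WT UNT, 7.49 and 5.38 in WT OXPT, 7.37 and 5.50 in KO UNT and 5.50 and 4.30 in KO OXPT. The groups of WT and KO overlapped almost completely. The 2 highest values were those of WT esiCT UNT and the lowest that of KO esiCT UNT B. The counting error of a single value was wide: the 95% exact Poisson interval, which covers counting error of the summit reads only, was 8.49 to 15.5 for WT esiCT UNT A with 44 summit reads, and 1.89 to 5.35 for KO esiCT UNT B with 14. The median fold of 6.50 was above the median of 5.80 over the 472 elements called in all 16 libraries, of which 109 (23.1%) had a higher one. The window held 1 such element of 65 (1.54%) and the genome 0.8%.

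**Figure D2:**
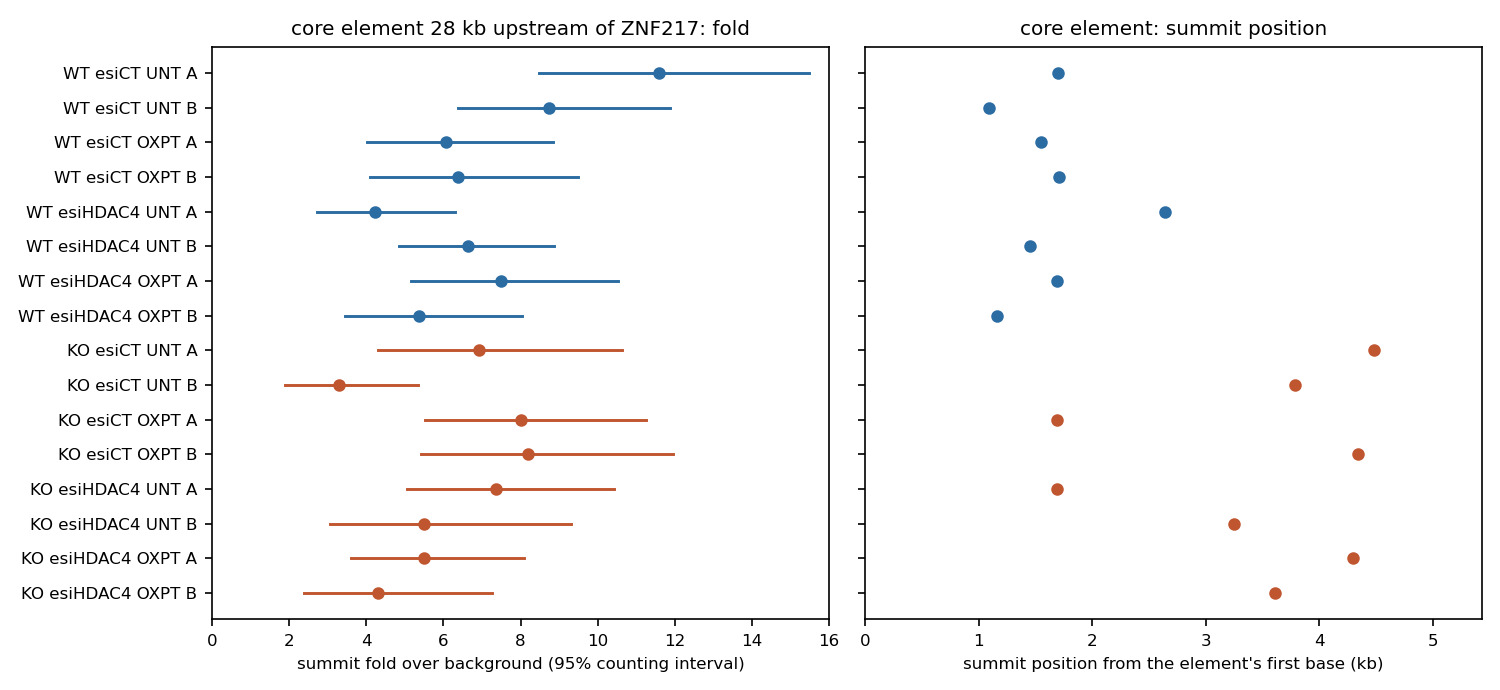
The core element in each of the 16 libraries (blue WT, orange KO): left, summit fold over background with its 95% counting interval, right, position of the summit in kb from the first base of the element. The folds of WT (4.22 to 11.59) and KO (3.28 to 8.20) overlap, and 6 of 8 KO summits lie at 3.25 kb or beyond, where no WT summit lies.

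The position of the core summit was also compared between the genotypes, a measure chosen after the values were seen. The summit lay between 1.09 and 2.64 kb from the first base of the element in the 8 WT libraries, and between 1.69 and 4.48 kb in KO. In KO esiCT OXPT A and KO esiHDAC4 UNT A it lay at 1.69 kb, among the WT values, and in the other 6 KO libraries at 3.25 kb or beyond. The means were 1.63 ± 0.47 kb in WT and 3.39 ± 1.13 kb in KO (SD, n = 8 libraries each), a difference of 1.77 kb with p = 0.00367 in a two-sided exact permutation test within replicate letters. The difference was 1.79 kb without KO esiHDAC4 UNT B (exact permutation p = 0.00571), 1.14 kb in replicates A (exact permutation p = 0.257) and 2.39 kb in replicates B (exact permutation p = 0.0286). Over all 472 elements the adjusted p of the core was 0.405, 43 elements (9.11%) passed at an unadjusted 0.05 and 0 after adjustment. The 2 KO libraries with a summit at 1.69 kb had backgrounds of 2.13 and 2.26 reads, and the deepest KO library, esiHDAC4 OXPT A with 2.89, had its summit at 4.30 kb. The remaining KO libraries, all with the summit at 3.25 kb or beyond, had backgrounds of 1.02 to 1.52 reads. These were below the lowest WT background of 1.65. Part of the core element is repeated sequence, and the summits of 5 WT and 2 KO libraries lay in it or beside it. Of the KO sequence printed above, which held 2 KO summits, 3.4% of the 24-base words recur in the genome. A further 6 summits lay in neither stretch, and the words around them were not counted. The part of the repeat and of depth in the difference was not tested.

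Further upstream of ZNF217, elements called in at least 8 libraries lay at 49.2 kb (chr20:53641960-53644104, 6 WT and 5 KO), 158.9 kb (chr20:53751421-53753994, 5 WT and 3 KO), 180.6 kb (chr20:53773318-53775645, 8 WT and 2 KO) and 235.4 kb (chr20:53827273-53831122, 8 WT and 7 KO). Placing these elements and those of the next paragraph by their number of calls was a choice made after their values were seen. The element at 235.4 kb was the most regular of the locus after the core, with folds of 4.98 to 8.11 in WT and 4.73 to 8.23 in KO, and it was missing only from KO esiHDAC4 UNT B. The element at 180.6 kb had folds of 4.68 and 4.23 in WT esiCT UNT, 3.57 and 5.41 in WT esiCT OXPT, 3.62 and 3.50 in WT esiHDAC4 UNT and 3.08 and 2.88 in WT esiHDAC4 OXPT. In KO it was called at 3.14 in esiCT OXPT B and at 3.51 in esiHDAC4 UNT A. In the opposite direction a short element at 212.4 kb (chr20:53805770-53806752, 983 bp), also picked out after its values were seen, was called in 3 KO esiCT libraries at 5.60, 3.10 and 5.67 and in no WT library.

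Between BCAS1 and CYP24A1 the elements called in at least 8 libraries were at 528.2 kb (chr20:54120536-54123563, 8 WT and 6 KO), 531.0 kb (chr20:54124080-54125568, 8 WT and 4 KO) and 539.5 kb (chr20:54131297-54135374, 8 WT and 5 KO). Folds at 528.2 kb ran from 4.57 to 7.45 in WT and from 3.84 to 6.24 in KO. Toward CYP24A1 followed the elements at 546.2 kb (chr20:54139302-54140853) and 555.8 kb (chr20:54148643-54150615), which were called in the same 6 WT libraries, both WT esiCT UNT and all 4 WT esiHDAC4, and in no KO library. In the order WT esiCT UNT A and B, WT esiHDAC4 UNT A and B, WT esiHDAC4 OXPT A and B, the folds at 546.2 kb were 3.87, 3.88, 3.54, 4.42, 3.71 and 3.58. At 555.8 kb they were 5.04, 3.52, 5.16, 3.37, 3.71 and 4.02. Neither WT esiCT OXPT library had them. Their lists held 24346 peaks in A and 10562 in B, and the part of list length in the missing calls was not tested.

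CYP24A1 had an element at 576.5 kb inside the gene and over an alternative start (chr20:54167977-54172693, 4717 bp), called in all 8 WT libraries at 3.59 to 7.13 and in 6 KO libraries at 3.14 to 4.83. Its main start site was flanked at 229 bp by the element at 582.6 kb (chr20:54174215-54178662, 4448 bp). There, WT folds were 7.16 and 5.46 in esiCT UNT, 4.41 in esiCT OXPT A, 5.58 and 5.97 in esiHDAC4 UNT and 5.08 and 3.57 in esiHDAC4 OXPT. The KO folds were 3.53, 3.55, 4.99 and 3.58, all in replicates A, and overlapped with the lower WT values. A further element, 96 bp from an alternative CYP24A1 start (chr20:54173094-54173553), was called only in WT esiCT UNT A at 4.66. The PFDN4 start site (chr20:54207805-54209306) was called in 6 WT libraries at 2.61 to 7.25 and in 4 KO libraries at 3.39 to 5.79.

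The SE lists joined these elements into 5 regions. The region at ZNF217 (chr20:53580486-53643903, 63.4 kb over all libraries) was called in 13 libraries, all 8 WT and 5 KO, and touched 13 elements. In 10 of these the SE was a single block of 11.6 to 18.5 kb that ran from about the element at 17.6 kb to the core. WT esiCT UNT B had a block of 34.7 kb reaching 53643903 and a separate one of 3.7 kb over the start site, and KO esiHDAC4 UNT A a block of 32.0 kb from the start site to the core. WT esiHDAC4 UNT B was the exception, with an SE of 14.5 kb that covered the start site and not the core. The region was absent from KO esiHDAC4 UNT B and from both KO esiHDAC4 OXPT libraries, which had no SE anywhere in the window.

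The region between BCAS1 and CYP24A1 (chr20:54120536-54153428, 32.9 kb) was called in all 8 WT and 4 KO libraries. It measured 31.9 and 28.7 kb in WT esiCT UNT A and B, 28.7 and 29.1 kb in WT esiHDAC4 UNT, 28.1 and 28 kb in WT esiHDAC4 OXPT, and only 17.7 and 10.0 kb in WT esiCT OXPT. The KO values were 12.1 kb in esiCT UNT B, 16.4 and 9.8 kb in esiCT OXPT and 10.6 kb in esiHDAC4 UNT A. The 6 long SEs were those of the libraries with the elements at 546.2 and 555.8 kb, and the 6 short ones ended before them, at 54138976 or lower. The region over the CYP24A1 start site (chr20:54166535-54180621, 14.1 kb) was called in 4 WT libraries, over 14.1, 11.6, 13.8 and 8.8 kb, and in KO esiCT OXPT A over 11.3 kb. The remaining regions were at chr20:53771388-53788201 in the UNT B libraries of WT esiCT and WT esiHDAC4, over 13.1 and 16.8 kb, and at chr20:53827993-53831032 in KO esiCT UNT B, over 3.0 kb.

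**Figure D3:**
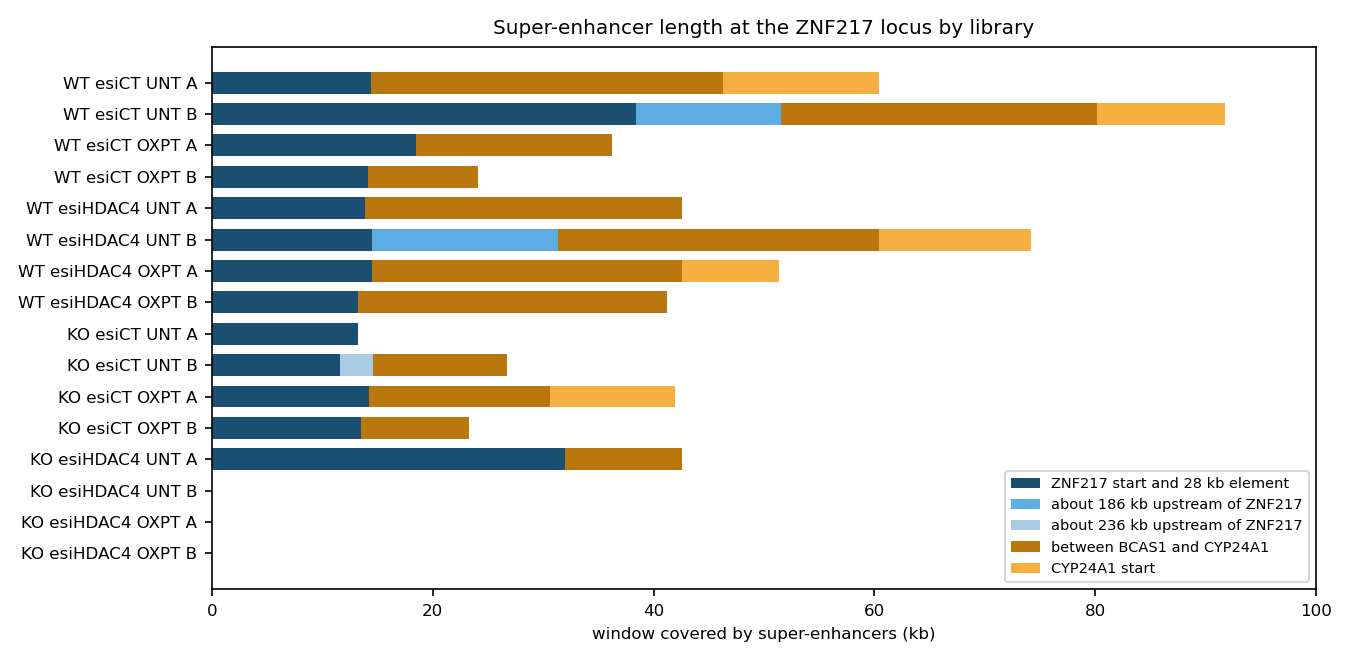
Kilobases of the window covered by SEs (x axis) in each of the 16 libraries (1 bar each), split by SE region. WT bars run from 24.1 to 91.9 kb, KO bars from 0 to 42.6 kb, and 3 KO esiHDAC4 libraries have no SE in the window.

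FBXW7 knockout was compared with WT over all 16 libraries, to ask whether the H3K27ac landscape of the locus differed by genotype. SEs covered 18.5 ± 18.0 kb of the window in KO and 52.8 ± 22 kb in WT (SD, n = 8 libraries each), a difference of -34.3 kb. The lowest, median and highest values were 24.1, 47.1 and 91.9 kb in WT and 0, 18.3 and 42.6 kb in KO, so the groups overlapped. KO includes the libraries whose SE calls chose the locus, so these values are a description with no test. The UNT libraries, which the choice did not use, were tested alone. There the means were 20.6 ± 18.3 kb in KO and 67.3 ± 20.9 kb in WT (n = 4 each), and the two-sided exact permutation p within letters, 0.0556, was the smallest that 36 arrangements allow. The direction was not shared by all groups: KO minus WT was -47.2 and -65.2 kb in esiCT UNT A and B, 5.75 and -0.766 kb in esiCT OXPT, -0.052 and -74.1 kb in esiHDAC4 UNT and -51.5 and -41.2 kb in esiHDAC4 OXPT. KO lists were also shorter by the median, with 343.5 SEs against 616 in WT, though not in each group. The KO list held more SEs than its WT match in esiCT OXPT A and B and in esiHDAC4 UNT A. It held fewer in all other matched pairs. As a percentage of all SE base pairs of the library the window differed by -0.186 percentage points, and the number of SEs in the window by -1.5. In UNT this percentage was 0.346 and 0.464 in WT esiCT A and B and 0.372 and 0.443 in WT esiHDAC4. It was 0.219 and 0.584 in KO esiCT and 0.388 and 0 in KO esiHDAC4, so on this scale the UNT groups overlapped. The value of 0 is that of the shallowest library, with 66 SEs.

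Peaks of the window made up 0.116 ± 0.0535% of a KO list and 0.135 ± 0.0126% of a WT list, a difference of -0.0190 percentage points (exact permutation p = 0.33, n = 8 libraries each). The number of peaks was 1 to 23 in KO, with a median of 13.5, and 16 to 41 in WT, with a median of 27.5. The share spread from 0.0571% to 0.212% among the KO libraries and from 0.115% to 0.152% among WT, so that most of the uncertainty came from KO. This test and those of presence and fold below include the KO OXPT libraries, whose SEs were joined from such peaks. In UNT alone, a set chosen after the data were seen, the share differed by -0.0224 percentage points (exact permutation p = 0.667, n = 4 libraries each).

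Of the 65 elements 40 (61.5%) were called in WT only, 5 (7.7%) in KO only and 20 in both, against 45.0% and 19.4% of all elements for the first pair. Presence could be tested for the 19 elements called in 3 to 13 libraries. In 17 of them KO had fewer calls, as had 17333 of 20090 tested elements over the genome. At an unadjusted p under 0.05, 4 had fewer calls in KO and 0 had more, where 13.6% of all tested elements had fewer and 0.0747% had more. The 4 were the ZNF217 start site (8 WT and 4 KO, exact p = 0.0286) and the elements at 180.6 kb (8 and 2), 546.2 kb and 555.8 kb (6 and 0 each), all with exact p = 0.0102. After Benjamini-Hochberg adjustment over all 20090 elements the p of each was 0.258, and no element of the genome passed, where 164 complete switches would have been needed for 1 to pass. The start site of PFDN4 gave an exact p of 0.608 and that of CYP24A1 0.143.

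**Figure D4:**
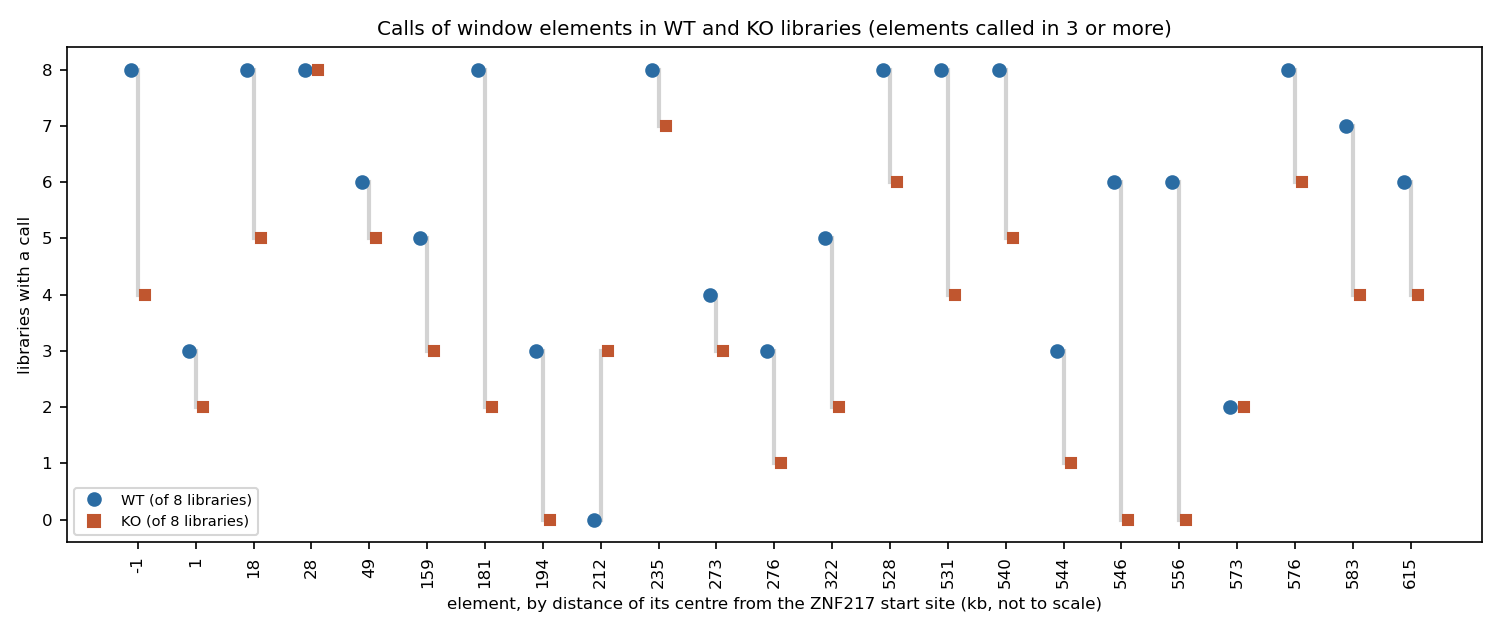
Number of WT (blue circles, of 8) and KO (orange squares, of 8) libraries that called each window element with a call in at least 3 libraries, in order along the chromosome, labelled by distance from the ZNF217 start site in kb. All but the elements at 28.4, 212.4 and 573.2 kb have more WT than KO calls, and at 546.2 and 555.8 kb 6 WT and 0 KO libraries have a call.

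Summit fold could be compared without missing values only at the core element, the single member of 65 that passed the requirement of a call in all 16 libraries. On the log2 scale, centred on the median of the 472 elements in each library, it averaged 0.17 ± 0.38 in WT and 0.02 ± 0.40 in KO (SD, n = 8 libraries each). The fitted difference was -0.15 ± 0.14 log2 units (SE), with an adjusted p of 0.577 in limma, so that a change of this size in either direction was not resolved. Of the 472 elements 12 (2.54%) passed in this comparison, 6 higher and 6 lower in KO, and 98 did so before adjustment. In a fit over elements called in at least 12 libraries, which dropped the libraries without a call, 6 elements of the window had enough calls. Their KO minus WT differences were -0.12 ± 0.18 at the ZNF217 start site, -0.06 ± 0.13 at 235.4 kb, -0.20 ± 0.14 at 528.2 kb, -0.29 ± 0.16 at 539.5 kb and -0.18 ± 0.16 at 576.5 kb, all below 0 and none called (limma adjusted p 0.366 to 0.855). An element missing from a list gives no fold, so these values leave lost calls out.

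OXPT was compared with UNT over the same libraries, to ask what the drug did to the locus. SEs covered 27.3 ± 19.2 kb after OXPT and 43.9 ± 30.8 kb in UNT (n = 8 libraries each), a difference of -16.7 kb that is given with no test, since the KO OXPT libraries chose the locus by their SEs. In WT alone, which the choice did not use, the means were 38.2 ± 11.4 kb and 67.3 ± 20.9 kb (n = 4 each), with an exact permutation p of 0.111 where 36 arrangements allow 0.0556. Over all 16 libraries the share of peaks was 0.123 ± 0.0329% and 0.127 ± 0.0462% (exact permutation p = 0.877). In WT alone it differed by -0.00652 percentage points (exact permutation p = 0.389, n = 4 libraries each). The tests of share, presence and fold over all 16 libraries include the KO OXPT libraries. None of the 19 testable elements had an unadjusted p under 0.05, against 0.692% of all tested elements with fewer and 1.43% with more calls after OXPT, and 0 passed after adjustment over the genome. Fold at the core differed by 0.13 ± 0.14 log2 units (SE), limma adjusted p = 0.935. No element of the 472 passed that comparison (0%), and 34 had an unadjusted p under 0.05.

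Within each genotype and silencing the OXPT and UNT values are set side by side without a test, since pairs of 2 libraries cannot give a small p. In WT esiCT the SE length was 60.4 and 91.9 kb in UNT A and B and 36.2 and 24.1 kb after OXPT, and the number of window peaks 35 and 36 and then 28 and 16. In KO esiCT it was 13.2 and 26.7 kb in UNT and 41.9 and 23.3 kb after OXPT, with 13 and 13 and then 23 and 15 peaks. In WT esiCT the OXPT values were lower in both letters and both measures, and in KO esiCT peaks were more in both letters and SE length was greater in A alone. In WT esiHDAC4 the SE length was 42.6 and 74.1 kb in UNT and 51.5 and 41.2 kb after OXPT, and in KO esiHDAC4 42.6 and 0 kb and then 0 and 0 kb. Lost after OXPT, that is in both UNT lists and in neither OXPT list, were 4 of 47 window elements in WT esiCT, 1 of 39 in WT esiHDAC4, 0 of 21 in KO esiCT and 0 of 18 in KO esiHDAC4, against 9.10%, 4.81%, 0.298% and 0.178% of all elements. Found the other way round were 2 of 21 in KO esiCT, against 4.31%.

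HDAC4 silencing was compared with control outside the KO OXPT groups, over 12 libraries that the choice of the locus did not use. SEs covered 42.0 ± 24.0 kb with esiHDAC4 and 42.1 ± 29.1 kb with esiCT (n = 6 libraries each), a difference of -0.0548 kb with an exact permutation p of 1.0, where 400 arrangements allow 0.005. Peaks of the window were 0.115 ± 0.0346% and 0.142 ± 0.0389% of the lists (exact permutation p = 0.275). The direction was not shared by the groups: esiHDAC4 minus esiCT was -17.8 and -17.7 kb in WT UNT A and B, 15.3 and 17.1 kb in WT OXPT, and 29.4 and -26.7 kb in KO UNT, where the last value is that of the shallowest library. Presence was testable for 15 elements, none of which reached an unadjusted p under 0.05. Over all 16815 tested elements 0.0178% did so with fewer calls and 0.0119% with more. With 12 libraries 1682 complete switches would be needed for an adjusted p under 0.05, and 0 elements passed. Fold at the core differed by -0.12 ± 0.16 log2 units (SE), limma adjusted p = 0.979, no element of the 472 passed (0%) and 22 had an unadjusted p under 0.05.

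The KO OXPT libraries, whose SE calls chose the locus, are described only. SEs covered 41.9 and 23.3 kb in esiCT A and B and nothing in esiHDAC4, and 2 of the 3 SE regions seen there were in both esiCT and neither esiHDAC4 library, the one at ZNF217 and the one between BCAS1 and CYP24A1. Over the genome this held for 10.2% of the SE regions. Window peaks numbered 23 and 15 with esiCT and 14 and 6 with esiHDAC4. Of the 21 elements seen in these 4 libraries 3 were in both esiCT and neither esiHDAC4 list, at 17.6, 158.9 and 212.4 kb, and 0 were the other way, against 2.68% and 0.71% of all elements. The core element and that at 235.4 kb stayed called in all 4, and the core fold was 8.0 and 8.2 with esiCT and 5.50 and 4.30 with esiHDAC4, 2 pairs that did not overlap but whose counting intervals did. The lists of these esiHDAC4 libraries held 18343 and 6084 peaks and 400 and 187 SEs, those of esiCT 21875 and 8216 peaks and 930 and 435 SEs. Beside the missing SE at ZNF217 stood the missing element at 17.6 kb and the lower fold of the core, and the part of the shorter lists in this was not tested. In WT OXPT the same comparison gave 0 lost of 34 elements and 2 gained, and 0 of 3 SE regions lost or gained, against 1.06% and 2.06% of all elements and 0.554% and 6.32% of all SE regions.

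The genes that ZNF217 and CYP24A1 work with were looked at by the peaks at their start sites. Of 10 corepressor partners 9 carried a peak in some library, CTBP2 being the exception, against 60.5% of all 19061 protein-coding start sites. The calls ranged from 11 libraries at KDM1A, PHF21A and HMG20B to 14 at RCOR1, none had a call in all 16, and all 9 had more WT than KO calls, as had 85.3% of the 11535 start sites with a call. HDAC2, a catalytic subunit of these complexes, was the only 1 of 9 tested with an unadjusted p under 0.05 for KO against WT (8 WT and 4 KO, exact p = 0.0286). Over all tested elements of the genome, 13.6% had fewer KO calls at that threshold, so 1 of 9 does not set this list apart. Of 8 vitamin D genes 5 had a peak. They were RXRA (14 libraries) and RXRB (13), the dimer partners of the vitamin D receptor, CYP27B1 (9), the activating 1-alpha-hydroxylase, VDR, the receptor itself (5, 4 WT and 1 KO), and CYP2R1 (3), a 25-hydroxylase, while CYP27A1, LRP2 and CUBN had none, and 0 of 4 tested passed. Of 15 neighbours on 20q13 12 had a peak. The imprinted signalling gene GNAS had 15 libraries, the mitotic kinase AURKA and its neighbour CSTF1 shared 1 peak in 11, and PTPN1, a tyrosine phosphatase, was called in 7 WT and 1 KO libraries (exact p = 0.0102), the only 1 of 9 tested under 0.05. The share of 13.6% over all tested elements applies here too. TSHZ2, DOK5 and CBLN4 had none. None of these genes passed for OXPT or for esiHDAC4.

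The start-site elements and SE regions with the pattern most like the locus were ranked by 2 measures, given as descriptions with no p. For the centred fold of the core over 16 libraries, the start-site elements called in all 16 (n = 141) with the highest Pearson r were those of the histone genes H2AC4 and H3C2, which share 1 element (0.72), TRIP6 (0.60), IRS1 (0.59), ARHGDIA (0.53) and TNRC18 (0.53). Over the 141 the r ran from -0.40 at the 5th to 0.51 at the 95th percentile, with a median of 0.06, and the points share libraries and depth. For the presence of the ZNF217 SE region, 11 of 1873 SE regions matched in at least 15 of 16 libraries. The region 66984 bp from SOCS6, a suppressor of cytokine signalling, and that 126357 bp from FAM3C, a secreted factor, matched in all 16. Of the regions matching in 15, the longest covered the start site of ELF3, an epithelial transcription factor. The next longest lay 608515 bp from UTRN and 4404 bp from KRT23, a keratin. These distances are to the start site of the nearest gene, and whether a region acts on that gene was not tested.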

How the data were processed

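H3K27ac ChIP-seq of HCT-116 cells was examined in 16 libraries, 8 groups of 2, each assigned from the labels. The 4 input samples were not analysed here. Per the labels and the study's methods, the authors used Trimmomatic 0.39 to trim read pairs, Bowtie2 2.4.4 to place them on hg38, SAMtools 1.18 to drop duplicates, MACS2 2.2.7.1 to call peaks in single libraries and ROSE to find SEs. In the deposited peak lists the fold is the ratio of summit pileup to local background, p and q are −log10 values, and the score is an integer made from q. The deposited SE lists hold positions only. The study kept SEs that also carried H3K4me1, and the sources used here do not say whether these lists had passed that filter.

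Peaks were merged at 1 bp, and 533 peaks on other contigs were left out. Summit reads and background were recovered from fold and p for 99.5% to 100% of the peaks of a library, which gives the counting intervals. The lists hold no read totals, so depth was read from that background, and intervals cover counting error only, as duplicates were removed without molecular identifiers.

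Window values, other than SE lengths that include the KO OXPT libraries, were tested with two-sided exact permutation tests within replicate letters, as the study's design held a replicate term. Presence was tested with an exact conditional test stratified by letter for elements called in 3 to 13 libraries (3 from either end in smaller sets), with Benjamini-Hochberg adjustment over the genome. Log2 fold was fitted with limma 3.58.1 in R 4.3.3 over the 472 elements called in all libraries, with 8 group means and the letter. Other steps used Python 3.11.15 with numpy 2.4.6, pandas 2.3.3, scipy 1.17.1 and matplotlib 3.10.9. The steps were tested on simulated data. The threshold was 0.05.

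Elements named were those within 1 kb of a start site, those called in all libraries, the element with the highest median fold, and up to 3 per comparison and direction with the smallest presence p, and all SE regions. Likeness was ranked for the 5 highest. Members and gene lists were chosen with earlier results of these data known. Alternatives were stricter or equal-length lists, other scalings, a merging gap of 500 bp, no replicate block and leaving out each library. One sequence and one marker gene are not reported here.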

Additional observations from a re-analysis of the deposited data

Results flagged for a closer look

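In 5 cases the 2 libraries of WT moved one way under a contrast and the 2 of KO the other way. None of these differences was tested, and pairs of 2 libraries cannot give a small p. Such cases were looked for in the share of peaks, peak kilobases, SE length and core fold. OXPT was taken within each silencing, and HDAC4 silencing within each treatment. These measures share libraries, so the cases are not independent of each other. The share of peaks in the window changed with HDAC4 silencing in UNT cells by 0.0081 and 0.0079 percentage points in WT and by -0.0136 and -0.1551 in KO, so that the KO response differed by -0.0924, and the last pair rests on the shallowest library. The kilobases of window peaks changed with OXPT in esiCT cells by -17.0 and -25.4 in WT and by 13.8 and 4.02 in KO, a difference of 30.1045 kb. Window SE length changed with HDAC4 silencing in OXPT cells by 15.3 and 17.1 kb in WT and by -41.9 and -23.3 kb in KO, a difference of -48.8325 kb, and the KO part of it chose the locus. The centred log2 fold of the core changed with OXPT in esiCT cells by -0.52 and -0.07 in WT and by 0.15 and 1.23 in KO, a difference of 0.9812. It changed with HDAC4 silencing in UNT cells by -1.24 and -0.32 in WT and by 0.04 and 0.88 in KO, a difference of 1.2394.

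Both of the last 2 differences use KO esiCT UNT B, whose core fold was itself apart from the other esiCT libraries, at -0.8023 on the centred log2 scale. Dixon's criterion at 95%, which singled it out, does so by chance in about 1 in 20 groups. It was applied to the same measures in every genotype, treatment and silencing group.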

How the results depend on the processing

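Libraries of the same letter deviated together in some pairs of groups and not in others. Over 472 elements these deviations correlated by -0.06 to 0.39, with a median of 0.05, and exceeded 0.1 in 12 of 28 pairs of groups. Without the replicate block SE length for KO minus WT was -34.29 kb, the share of peaks -0.01895 points (exact permutation p = 0.35) and the window elements under 0.05 by presence 3, and no call in the window changed after adjustment. Over the genome, elements called by fold for KO against WT were 3 higher and 1 lower without the block, against 6 and 6.

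SE length for KO minus WT was negative in each alternative run, though not in each group. It was -1.5 as the number of SEs and -46.66 kb in UNT alone (added after seeing the data), and ranged from -45.33 kb (B alone) to -23.25 kb (A alone) when a library or letter was left out. The share of peaks for KO minus WT passed as the log2 number of peaks (-1.416), which includes list length, and ranged from -0.03277 to -0.005573 points with libraries left out, passing in A alone (-0.03233) and without KO esiCT UNT B (-0.03277). The 4 elements with fewer KO calls were 4 to 5 with libraries left out. For peaks with −log10 q of at least 10 the count was 0, where only 4 other elements kept enough calls to be tested.

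The OXPT share of peaks became 0.1228 for peaks with −log10 q of at least 10, 0.01063 above 1 common fold, 0.04281 in lists of equal length and 0.05859 as a log2 number, and ran from -0.01302 to 0.009141 with libraries left out. For esiHDAC4 that range was -0.05652 to 0.002871 points and for its SE length -9.086 to 9.904 kb. The OXPT SE length stayed negative, from -26.01 to -7.322 kb, and was -29.03 kb in WT alone (added after seeing the data). The core fold ran from -0.272 to -0.032 for KO, 0.014 to 0.254 for OXPT and -0.279 to 0.04 for esiHDAC4, and uncentred folds turned the OXPT value to -0.014, where they shift the median of all elements by -0.151. The causes were not tested. Depth limits absence: in the shallowest library a summit over the lowest background was called only at folds of at least 3.96.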

Other observations

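Some summits of this locus lay in repeated sequence. A median of more than 10 genomic copies per 24-base word was found around the strongest summit of 13 of the 65 elements, against 33 of the 472 elements called in all 16 libraries (7.0%). These sets are unlike, since 35 of the 65 elements were called in a single library, and the share over all elements was not computed. The difference was not tested. Apart from the core and the element at 531.0 kb (a median of 54 copies, 12 libraries) the 13 elements were called in 1 to 3 libraries.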
